A study of Mus musculus with 10 samples.

Results

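Zbtb16 and 8 further genes that glucocorticoids are known to induce were followed across 4 groups of mouse livers. The 9 genes, Zbtb16, Fkbp5, Tsc22d3, Sgk1, Klf9, Dusp1, Mt1, Mt2 and Errfi1, are 9 of 22180 genes with a name on the array, and each was read from the 1 transcript cluster that maps to its symbol alone. Zbtb16 was chosen by its measured values, a higher level with follistatin in livers of mice on a high-fat diet, so its values there are a description and carry no test. Levels are log2 values from RMA, a method that corrects the background, sets the arrays to a common distribution and summarises the probes of a gene, so that a difference of 1 is a doubling.

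All livers came from male mice that were fasted before collection and had carried an adeno-associated virus for about 2 weeks. The virus uses the TBG promoter, which is active in hepatocytes, and carried GFP as the control or the follistatin isoform FST288. Follistatin is secreted and traps activins and some related growth factors before they reach their receptors. Wild-type mice fed a high-fat diet provided 6 liver arrays, 3 per virus (HFD GFP and HFD FST288). Mice labelled LTKO provided 4, with 2 per virus (LTKO GFP and LTKO FST288). The labels do not spell out LTKO and do not give the diet of these mice, so genotype and diet cannot be told apart in any comparison of LTKO with HFD livers. In the field, LTKO commonly stands for a liver triple knockout of the insulin receptor adaptors Irs1 and Irs2 together with Foxo1, a transcription factor that insulin inactivates. The age of the mice is not given, and the labels do not say that each array is a separate animal. The p-values therefore measure the spread between these samples, which may be technical.

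Glucocorticoids are adrenal steroid hormones that rise in fasting and follow a daily rhythm. In the hepatocyte they bind the glucocorticoid receptor, a transcription factor held by chaperones until the hormone arrives, which then binds DNA at response elements and induces genes of glucose production, amino acid breakdown and feedback. The 9 genes are also open to other inputs: metals induce the metallothioneins, growth factor and stress signals induce Dusp1 and Errfi1, and insulin and the circadian clock act on several of them.

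Short promoter stretches of 5 of the genes are shown because they hold the letters of elements through which these inputs are known to act. They are from RefSeq on GRCm38.p6, and 16 promoter windows of 8 of the 9 genes were found in its table; Zbtb16 was not among them. Each window covers 250 bases before to 50 after a start site, and both strands were searched. Capitals mark the matched letters, which are AGAACA and TGTTCT with 3 bases between them (glucocorticoid response element), TGACGTCA (cAMP response element) and TGCACNC or TGCGCNC (core of the metal response element), printed on the gene's strand.
Sgk1, chr10:21993676-21993740, plus strand: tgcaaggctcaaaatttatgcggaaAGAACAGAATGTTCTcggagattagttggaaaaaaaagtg
Dusp1, chr17:26508583-26508640, minus strand: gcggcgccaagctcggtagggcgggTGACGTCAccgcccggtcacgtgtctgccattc
Errfi1, chr4:150854994-150855051, plus strand: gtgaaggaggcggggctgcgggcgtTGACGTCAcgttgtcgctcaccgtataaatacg
Mt1, chr8:94179041-94179118, plus strand: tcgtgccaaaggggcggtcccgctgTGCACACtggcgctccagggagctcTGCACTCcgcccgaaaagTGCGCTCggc
Mt2, chr8:94172370-94172647, plus strand: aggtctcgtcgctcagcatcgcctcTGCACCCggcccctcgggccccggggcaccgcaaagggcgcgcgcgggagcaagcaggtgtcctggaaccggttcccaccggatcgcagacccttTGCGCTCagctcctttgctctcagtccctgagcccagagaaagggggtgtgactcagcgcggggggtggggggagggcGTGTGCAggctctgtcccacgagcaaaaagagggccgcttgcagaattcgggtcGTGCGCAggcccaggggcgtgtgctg
The complete glucocorticoid element was found in 1 of the Sgk1 windows and in 3 of all 32851 promoter windows of the same length, or 0.00913%. The cAMP element of Dusp1 and Errfi1 was in 588 windows, or 1.79%. Mt1 has 3 cores of the metal element and Mt2 has 4, of which some read on the opposite strand; 1.97% of all windows have 3 or more and 0.517% have 4 or more. A match is a description of the letters and does not show a bound factor.

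Before the results, 3 features of the arrays bear on them. Fst followed the vector named in the labels, and Irs1, Irs2 and Foxo1, the genes that LTKO commonly refers to, were lower in LTKO livers. Fst was 2.11-fold higher with FST288 in HFD livers (limma, adjusted p = 0.015) and 2.72-fold higher in LTKO livers (adjusted p = 0.0307), calls that stood in 6 and 3 of the 10 fits that leave out 1 array. In LTKO GFP against HFD GFP livers Irs1 differed by -1.77, Irs2 by -1.21 and Foxo1 by -1.68 on the log2 scale. With the mean of a gene's transcript clusters Irs1 and Foxo1 gave -0.89 and -0.90, and without LTKO GFP replicate 1 Irs2 gave -0.79 and lost its call. Hepatocyte markers were high on every array, with medians over 8 genes between 9.92 and 10.30. HFD FST288 replicates 2 and 3 carried markers of the exocrine pancreas, with a median over 8 genes of 7.65 and 6.58 against 2.05 to 2.43 on the other arrays. LTKO FST288 replicate 2 was high in macrophage markers, with a median over 10 genes of 7.36 against 5.59 to 6.08 elsewhere. In bulk liver, a change in the share of a cell type and a change in RNA per cell cannot be told apart.

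Zbtb16 encodes PLZF, a zinc finger repressor that is a strong glucocorticoid target in many tissues. Its levels on the HFD GFP arrays were 4.82, 4.33 and 4.99, and on the HFD FST288 arrays 6.39, 6.05 and 6.04. All 3 FST288 arrays lay above all 3 GFP arrays, with a gap of more than 1 log2 unit between the closest ones. The group means were 4.71 ± 0.35 and 6.16 ± 0.20 (SD, n = 3 and 3), a difference of 1.45 ± 0.18 (SE), or 2.73-fold. It was 1.25 to 1.59 when any 1 array was left out, and 1.68 with HFD FST288 replicate 1 alone, that is, without the arrays high in pancreatic markers.

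In LTKO livers the levels of Zbtb16 were 4.19 and 4.62 with GFP and 4.67 and 4.43 with FST288. The groups overlapped, and the change of 0.15 ± 0.22 did not pass the test (limma, adjusted p = 0.886; 95% interval -0.32 to 0.62). None of the arrays that chose the gene is compared here, although their spread enters the error of the fit. The FST288 effect in LTKO livers minus that in HFD livers was -1.30 ± 0.28, a value that shares the HFD arrays with the choice of Zbtb16 and is a description. In order of level, HFD FST288 (6.16) stood above HFD GFP (4.71), LTKO FST288 (4.55 ± 0.18, n = 2) and LTKO GFP (4.41 ± 0.30, n = 2). Neighbours among these last 3 groups overlapped array by array, and HFD FST288 overlapped none.

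**Figure D1:**
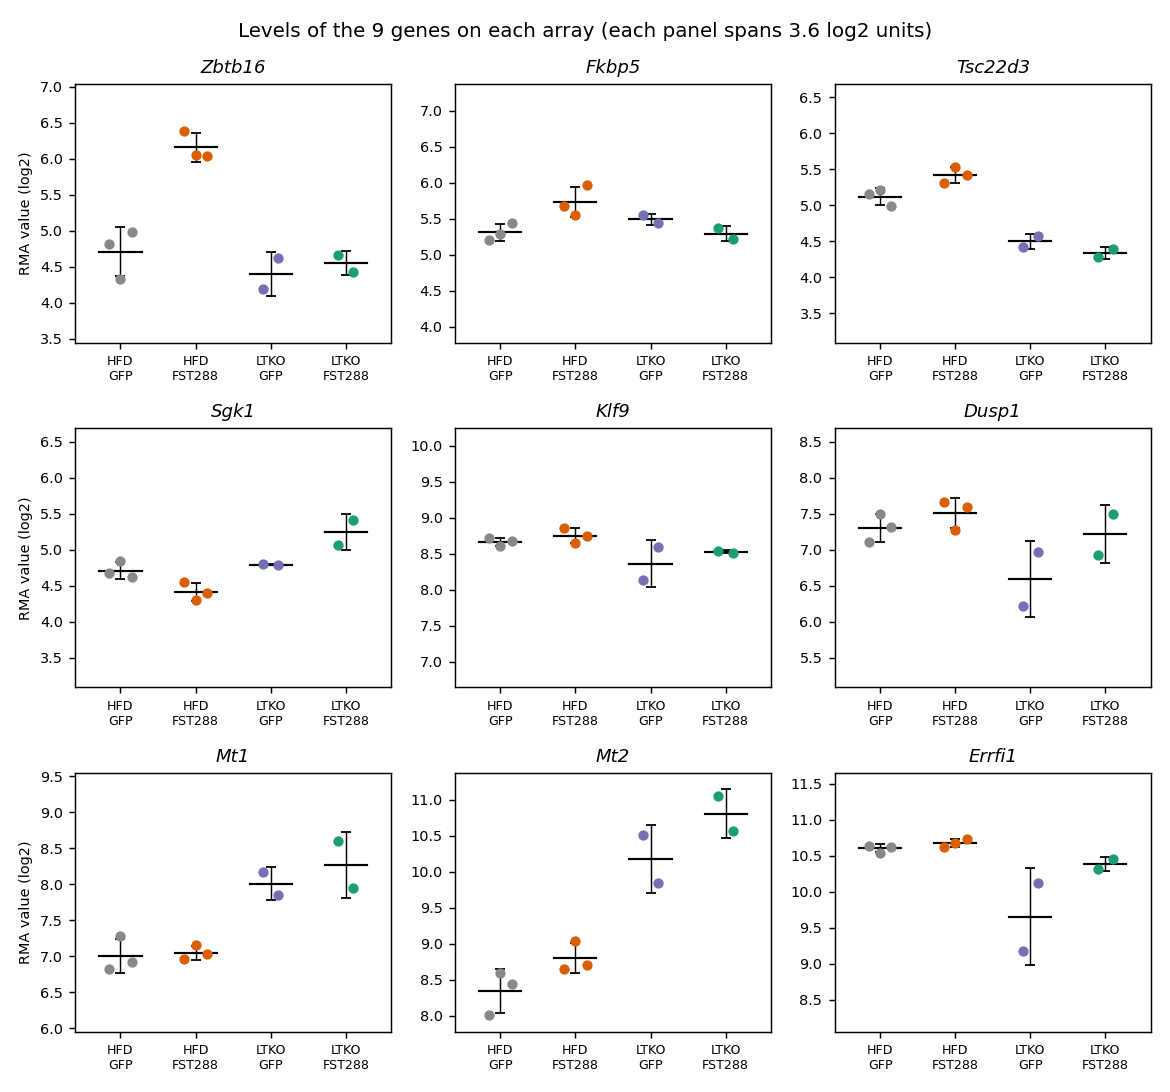
RMA level (log2) of each of the 9 genes on each of the 10 arrays, in panels that all span 3.6 log2 units; points are arrays, horizontal lines are group means and error bars are SD (n = 3 for HFD groups, 2 for LTKO groups). The HFD FST288 points of Zbtb16 lie between 6.04 and 6.39, above all its other points, and the LTKO points of Mt1 and Mt2 lie above all HFD points.

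PLZF is also a factor that marks natural killer T cells and the precursors of innate lymphoid cells. Over 15 markers of T, NK and NKT cells the median was 2.74 to 2.91 on the HFD GFP arrays and 2.72 to 2.86 on the HFD FST288 arrays. With FST288 in HFD livers limma called 0 of the 15 in either direction (2 at an unadjusted p under 0.05) and 0 of 7 innate lymphoid markers (1 at an unadjusted p under 0.05). Between the same arrays the median change of the 15 markers was -0.06, with single markers from -0.45 to 0.65. The list medians lay below 3.12, the median level of all genes, and RMA shrinks differences of dim genes. Whether lymphoid cells contributed to the level of Zbtb16 was not tested. In LTKO FST288 against HFD FST288 livers, where Zbtb16 was lower, 2 of the 15 were called higher, and they were Cd3e (0.76 ± 0.21, limma, adjusted p = 0.0309) and Cd3g (1.07 ± 0.31, adjusted p = 0.0439) of the T cell receptor complex. Without LTKO FST288 replicate 2, the array high in macrophage markers, they gave 0.45 and 0.30. Of the 10 fits that leave out 1 array, the Cd3e call stood in 6 and the Cd3g call in 1. The share of all genes called higher in that comparison was 5.05%. Of the 37 measured genes of the ZBTB family, 1 was called with FST288 in HFD livers, and it was Zbtb16, which that contrast chose. Zbtb20, a repressor that is abundant in hepatocytes, was 2.01-fold lower in LTKO than in HFD livers with GFP (limma, adjusted p = 2.27e-05) and 2.75-fold lower with FST288 (adjusted p = 7.81e-07).

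The genes whose profile over the 10 arrays was closest to that of Zbtb16 were B3galt1, Zyg11a, Inhba, Abhd17b and Fam126b. Likeness was the root mean square difference after each gene was centred on its own mean, and it was 0.215, 0.266, 0.293, 0.332 and 0.333 log2 units in that order. Inhba encodes the beta A subunit of activin, the ligand that follistatin binds. Its means were 5.23 ± 0.22 and 6.21 ± 0.38 in HFD livers (n = 3 and 3) and 4.66 ± 0.14 and 5.09 ± 0.23 in LTKO livers (n = 2 and 2), with GFP and FST288 in that order. B3galt1, a galactosyltransferase, went from 7.10 ± 0.35 to 8.33 ± 0.12 in HFD livers (n = 3 and 3) and from 6.41 ± 0.00 to 6.72 ± 0.14 in LTKO livers (n = 2 and 2). These genes were picked for following Zbtb16, so their higher level in HFD FST288 livers is part of the pick and not a separate result.

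**Figure D2:**
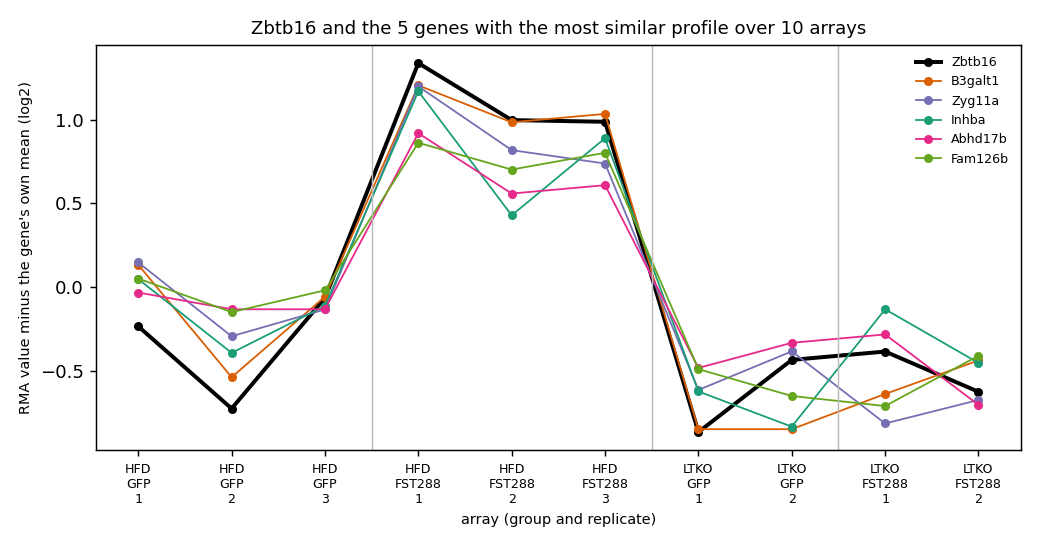
Level of Zbtb16 (black) and of the 5 genes closest to it on each array, as RMA value minus the gene's own mean over 10 arrays (log2); lines only join the points of a gene, since replicates have no order. All 6 genes are highest on the 3 HFD FST288 arrays.

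The other genes of the group did not follow Zbtb16 past the test. In HFD livers 1 of 9 members was called higher with FST288, which was Zbtb16, and 0 lower, where 0.577% of all genes were called higher and 0.419% lower. Nothing is read from that count, since the contrast chose Zbtb16. In LTKO livers 0 of 9 were called in either direction, where 0.167% of all genes were called (limma; 4 of the 9 at an unadjusted p under 0.05). Of the 8 genes other than Zbtb16, 0 differed between backgrounds in their response to FST288, where 0.216% of all genes did (4 of the 8 at an unadjusted p under 0.05). The median change of the 8 genes other than Zbtb16 was 0.14 in HFD livers and 0.36 in LTKO livers. Medians of all genes were 0.00 and -0.02.

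Fkbp5 and Tsc22d3 are among the most general glucocorticoid targets. Fkbp5 encodes a co-chaperone that lowers the receptor's affinity for hormone, and thus closes a feedback loop. Its levels were 5.21, 5.29 and 5.44 in HFD GFP, 5.68, 5.56 and 5.97 in HFD FST288, 5.55 and 5.44 in LTKO GFP, and 5.37 and 5.22 in LTKO FST288 livers. In HFD livers every FST288 array was above every GFP array, and in LTKO livers every FST288 array was below. Neither change passed the test, at 0.42 ± 0.12 (limma, adjusted p = 0.152) and -0.20 ± 0.15 (adjusted p = 0.724), and the difference between them was -0.62 ± 0.20 (adjusted p = 0.227).

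Tsc22d3 encodes GILZ, a mediator of the anti-inflammatory action of glucocorticoids. Its levels were 5.16, 5.22 and 4.99 in HFD GFP and 5.31, 5.53 and 5.42 in HFD FST288 livers. In LTKO livers they were 4.43 and 4.57 with GFP and 4.28 and 4.40 with FST288, so that all 4 LTKO arrays lay below all 6 HFD arrays. With GFP, Tsc22d3 fell by 0.62 ± 0.13 in LTKO against HFD livers (limma, -0.62, adjusted p = 0.00517), a call that was lost without LTKO GFP replicate 1 (-0.56, adjusted p = 0.0554). With FST288 it fell by 1.08 ± 0.13 (-1.08, adjusted p = 8.15e-05), 2.11-fold, and stayed called in all 21 alternatives, with -0.97 without the pancreas-marked HFD FST288 replicates 2 and 3 and -1.14 without the macrophage-marked LTKO FST288 replicate 2. The FST288 effect was 0.29 ± 0.12 in HFD livers (adjusted p = 0.305) and -0.16 ± 0.14 in LTKO livers (adjusted p = 0.768). Its difference between backgrounds was -0.46 ± 0.18 (adjusted p = 0.326).

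Sgk1 encodes a kinase of ion transport and cell survival that can phosphorylate FoxO factors, and its promoter holds the complete glucocorticoid element shown above. It ran opposite to Fkbp5 and Tsc22d3. The levels were 4.68, 4.84 and 4.62 in HFD GFP, 4.55, 4.30 and 4.40 in HFD FST288, 4.80 and 4.79 in LTKO GFP, and 5.07 and 5.42 in LTKO FST288 livers. The FST288 arrays lay below the GFP arrays in HFD livers and above them in LTKO livers. The changes were -0.30 ± 0.13 (adjusted p = 0.358) and 0.45 ± 0.15 (adjusted p = 0.350), and their difference was 0.75 ± 0.20 (limma, adjusted p = 0.160). None of these 3 passed the test.

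Between backgrounds, Sgk1 differed by 0.08 ± 0.14 with GFP (adjusted p = 0.800). With FST288 it rose by 0.83 ± 0.14 in LTKO against HFD livers, 1.77-fold (limma, adjusted p = 0.00152). Without the pancreas-marked HFD FST288 replicates 2 and 3 the value was 0.69 and the call was lost (adjusted p = 0.0892). Without the macrophage-marked LTKO FST288 replicate 2 it was 0.65 and still called (adjusted p = 0.0332). With the pancreatic markers as a covariate it was 0.68 and not called (adjusted p = 0.0782). All 3 measured SGK kinases were called higher in this comparison, with Sgk2 at 0.68 ± 0.16 and Sgk3 at 0.63 ± 0.13, and both of these calls were also lost without HFD FST288 replicates 2 and 3, where Sgk2 gave 0.47 and Sgk3 gave 0.63. The Sgk2 call was lost too without HFD FST288 replicate 2, replicate 3 or LTKO FST288 replicate 1, and the Sgk3 call without LTKO FST288 replicate 2. The share of all genes called higher in this comparison was 5.05%.

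**Figure D3:**
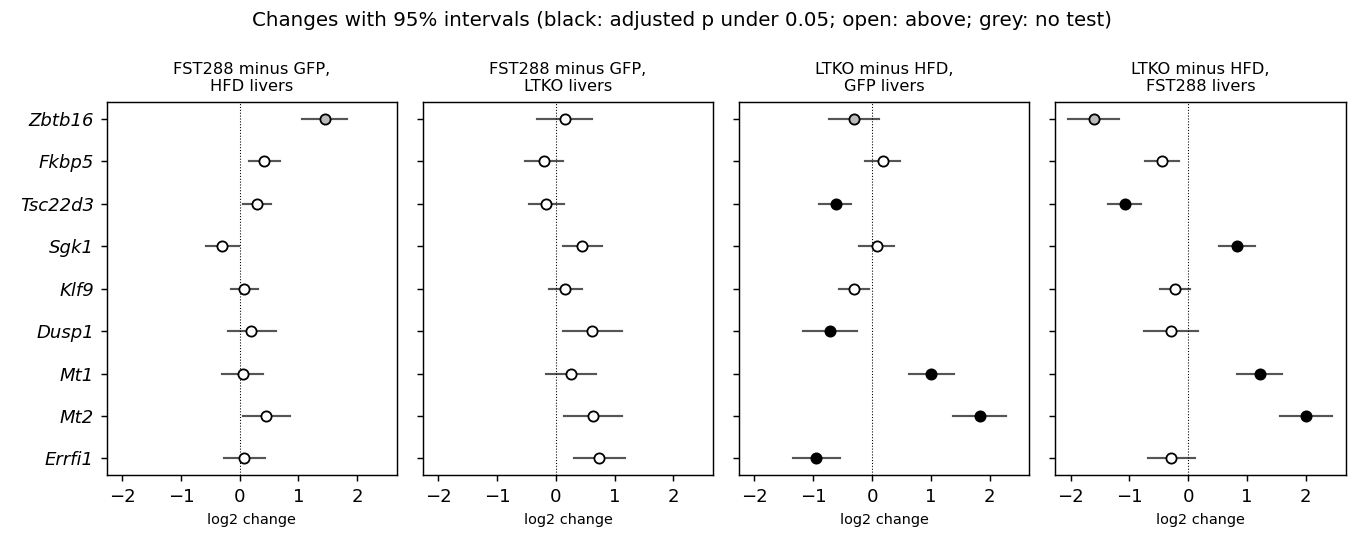
Change (log2) of the 9 genes in 4 comparisons, as points with 95% confidence intervals of the limma fit; black points have an adjusted p under 0.05, open points do not, and grey points of Zbtb16 share arrays with its choice and carry no test. No tested point is black for FST288 against GFP in either background, whereas 5 genes are black for LTKO against HFD livers with GFP.

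Klf9 encodes a Krüppel-like transcription factor that is a direct receptor target in many cells. Its levels ran from 8.61 to 8.72 in HFD GFP and from 8.65 to 8.85 in HFD FST288 livers, and were 8.13 and 8.59 in LTKO GFP and 8.54 and 8.51 in LTKO FST288 livers. LTKO GFP replicate 1 was the array that stood low, and the other 9 arrays lay between 8.51 and 8.85. The FST288 effects were 0.08 ± 0.10 (limma, adjusted p = 0.820) and 0.16 ± 0.13 (adjusted p = 0.745). LTKO GFP against HFD GFP gave -0.30 ± 0.12 (adjusted p = 0.115). Without LTKO GFP replicate 1 that value was -0.07, and without replicate 2 it was -0.54 and called (adjusted p = 0.00632).

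Dusp1 encodes a phosphatase that switches off MAP kinases, and Errfi1 encodes MIG6, an inhibitor of the epidermal growth factor receptor. For Dusp1 the levels were 7.11, 7.49 and 7.31 in HFD GFP, 7.66, 7.28 and 7.59 in HFD FST288, 6.22 and 6.97 in LTKO GFP, and 6.93 and 7.50 in LTKO FST288 livers. For Errfi1 they were 10.64, 10.54 and 10.63 in HFD GFP, 10.63, 10.68 and 10.73 in HFD FST288, 9.18 and 10.13 in LTKO GFP, and 10.32 and 10.46 in LTKO FST288 livers. With FST288 in HFD livers Dusp1 gave 0.20 ± 0.19 (limma, adjusted p = 0.740), and Errfi1 gave 0.08 ± 0.16 (adjusted p = 0.903). The 2 LTKO GFP arrays were the lowest for Errfi1, whereas for Dusp1 LTKO FST288 replicate 1 lay just below LTKO GFP replicate 2. Errfi1 varied by 0.10 among the 3 arrays of either HFD group and by 0.96 between the 2 LTKO GFP arrays.

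Against HFD GFP livers, Errfi1 was 1.93-fold lower in LTKO GFP livers, at -0.95 ± 0.18 (limma, adjusted p = 0.00353). The call stood in all 21 alternatives, but its size rested on which LTKO GFP array was kept: -0.47 without replicate 1 and -1.42 without replicate 2. Dusp1 was 1.63-fold lower, at -0.71 ± 0.21 (adjusted p = 0.0428). That call was lost in 10 of 21 alternatives, with values from -0.33 without LTKO GFP replicate 1 to -1.08 without replicate 2. With FST288 in both backgrounds the differences were -0.29 ± 0.18 for Errfi1 (adjusted p = 0.430) and -0.29 ± 0.21 for Dusp1 (adjusted p = 0.509). The Errfi1 arrays did not overlap between these groups, and its difference was called in 3 of 21 alternatives, at -0.29 without LTKO GFP replicate 1 (adjusted p = 0.0151) or replicate 2 (adjusted p = 0.0160) and in a fit of the 2 groups alone (adjusted p = 0.0354).

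Within LTKO livers, FST288 against GFP gave 0.73 ± 0.20 for Errfi1 (limma, adjusted p = 0.237) and 0.62 ± 0.23 for Dusp1 (adjusted p = 0.394). Neither passed. For Dusp1 the value was 0.24 without LTKO GFP replicate 1, 0.99 without replicate 2 and 0.33 without LTKO FST288 replicate 2, and it was called in none of these. For Errfi1 the value was 0.26 without LTKO GFP replicate 1 and 1.21 without replicate 2, where it was called (adjusted p = 0.000357). The gap of 0.96 between the 2 LTKO GFP arrays was larger than this change. LTKO GFP replicate 1 minus replicate 2 was -0.96 for Errfi1, a value that 0.28% of all genes undercut, -0.75 for Dusp1 (0.85%) and -0.46 for Klf9 (4.93%). Nr4a1, an immediate early gene of hormone and stress signals, was at -0.87 (0.42%), while Fosl2, another, was at 0.55.

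Of 21 other immediate early genes, 0 were called with FST288 in either background (limma; 2 in HFD and 5 in LTKO livers at an unadjusted p under 0.05), 1 was called higher in LTKO GFP against HFD GFP livers, and 5 were higher with FST288 in both, or 2 without the pancreas-marked HFD FST288 replicates 2 and 3 and 2 without LTKO FST288 replicate 2. The 15 measured partners of MIG6 and SGK1 gave 0 calls with FST288 in either background (limma; 3 and 2 at an unadjusted p under 0.05). Egfr itself, the receptor that MIG6 inhibits, was lower in LTKO livers, by 0.87 with GFP (-0.87 ± 0.09, adjusted p = 2.72e-05) and by 1.25 with FST288 (-1.25 ± 0.09, adjusted p = 1.03e-06). Both Egfr calls stood in all 21 alternatives. Between backgrounds, 6.69% of all genes were called higher and 6.4% lower with GFP, and 5.05% and 5.29% with FST288.

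The metallothioneins Mt1 and Mt2 are small cysteine-rich proteins that bind zinc and copper and are induced by metals through MTF1 and by glucocorticoids. Mt1 levels were 6.83, 7.28 and 6.92 in HFD GFP, 6.97, 7.16 and 7.03 in HFD FST288, 8.17 and 7.85 in LTKO GFP, and 8.60 and 7.95 in LTKO FST288 livers. Mt2 levels were 8.01, 8.59 and 8.44 in HFD GFP, 8.65, 9.04 and 8.71 in HFD FST288, 10.51 and 9.85 in LTKO GFP, and 11.05 and 10.57 in LTKO FST288 livers. Every LTKO array stood above every HFD array for both genes.

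These were the largest background differences of the 9 genes with GFP, with the lowest adjusted p. Mt2 rose by 1.83 ± 0.21 in LTKO GFP against HFD GFP livers, 3.55-fold (limma, adjusted p = 4.67e-05), and Mt1 by 1.01 ± 0.18, 2.01-fold (adjusted p = 0.00188). With FST288 in both, Mt2 rose by 2.01 ± 0.21 (adjusted p = 2.20e-05) and Mt1 by 1.22 ± 0.18 (adjusted p = 0.000446). All 4 calls stood in all 21 alternatives. Without the pancreas-marked HFD FST288 replicates 2 and 3 the FST288 livers gave 2.16 for Mt2 and 1.30 for Mt1, and without the macrophage-marked LTKO FST288 replicate 2 they gave 2.25 and 1.55. The FST288 effect on Mt2 was 0.45 ± 0.18 in HFD livers (adjusted p = 0.339) and 0.63 ± 0.23 in LTKO livers (adjusted p = 0.367), with no overlap of the groups in either. For Mt1 it was 0.05 ± 0.16 (adjusted p = 0.948) and 0.26 ± 0.20 (adjusted p = 0.726). Mt1 and Mt2 are neighbouring genes of similar sequence, and whether probes read both was not tested.

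Among 11 other genes of metal handling and the oxidant response, 2 were called higher in LTKO than in HFD livers with GFP and the same 2 with FST288. They were Gclc, the limiting enzyme of glutathione synthesis, at 1.51 ± 0.08 (limma, adjusted p = 3.36e-08) and 1.14 ± 0.08 (adjusted p = 4.79e-07), and Hmox1, heme oxygenase 1, at 0.69 ± 0.16 (adjusted p = 0.0111) and 1.43 ± 0.16 (adjusted p = 4.66e-05). The first of the Hmox1 calls was lost without LTKO GFP replicate 2. Gclc fell with FST288 in LTKO livers, by 0.70 ± 0.09 (-0.70, adjusted p = 0.00534), where Mt1 and Mt2 did not pass the test. In HFD livers it gave -0.33 ± 0.07 (adjusted p = 0.0438), a call that held in 10 of 21 alternatives. With FST288 in both backgrounds 1 gene of the list was lower, Slc39a14, a zinc importer (-0.79 ± 0.15, limma, adjusted p = 0.0027). Among all genes, 6.69% were called higher between backgrounds with GFP, and 5.05% were called higher and 5.29% lower with FST288.

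Counted together, 5 of 9 genes differed between LTKO GFP and HFD GFP livers, 2 higher (Mt1 and Mt2) and 3 lower (Tsc22d3, Dusp1 and Errfi1), where 6.69% of all genes were called higher and 6.4% lower. With FST288 in both backgrounds 3 were called higher (Sgk1, Mt1 and Mt2), where 5.05% of all genes were, and 2 lower (Zbtb16 and Tsc22d3), where 5.29% were. Zbtb16 is in the second count through arrays that chose it, and the difference there was -1.61 ± 0.20. The 8 genes other than Zbtb16 thus moved in both directions, with medians of -0.11 and -0.26 beside 0.01 and 0.00 for all genes. Groups did not overlap for 7 and 8 of the 9 genes in these comparisons, where 40.3% and 37.4% of all genes did not overlap. Zbtb16 is among the 8 through arrays that chose it. With FST288 against GFP the groups did not overlap for 5 of 9 in LTKO livers, where 37.8% of all genes did not. In HFD livers they did not for 5 of 9, Zbtb16 among them, where 18.4% of all genes did not.

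The receptor and its hormone supply were next. Nr3c1, the glucocorticoid receptor, was at 7.56 ± 0.08 in HFD GFP and 7.44 ± 0.16 in HFD FST288 livers (n = 3 and 3), and at 7.29 ± 0.08 in LTKO GFP and 7.02 ± 0.15 in LTKO FST288 livers (n = 2 and 2). Its FST288 effects of -0.12 ± 0.10 (limma, adjusted p = 0.720) and -0.27 ± 0.13 (adjusted p = 0.514) did not pass. Hsd11b1, the enzyme that regenerates active hormone in the liver, was at 9.03 ± 0.07, 9.23 ± 0.05, 8.72 ± 0.16 and 8.70 ± 0.42 in the same order. Of 14 measured genes of receptor, chaperones, coactivators and hormone metabolism, 0 were called with FST288 in either background (limma; 3 in HFD and 1 in LTKO livers at an unadjusted p under 0.05).

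In LTKO GFP against HFD GFP livers 1 of these 14 genes was higher and 2 were lower, where 6.69% of all genes were called higher and 6.4% lower. H6pd, which supplies the cofactor of Hsd11b1, rose by 0.66 ± 0.11 (limma, adjusted p = 0.00143). Akr1d1, a reductase that inactivates steroid hormones, fell by 0.82 ± 0.10 (-0.82, adjusted p = 6.73e-05), and Nr3c2, the mineralocorticoid receptor, by 0.95 ± 0.16 (-0.95, adjusted p = 0.00111), which was -0.54 with the mean of its clusters and still called. With FST288 in both backgrounds 0 were higher and 7 lower, where 5.05% of all genes were called higher and 5.29% lower. Among the 7 were Akr1d1 (-0.73, limma, adjusted p = 0.000199) and Nr3c2 (-1.08, adjusted p = 0.000429, and -0.64 with the mean of its clusters). Nr3c1 (-0.42, adjusted p = 0.0324) and Hsd11b1 (-0.53, adjusted p = 0.0230) were also among the 7, but either call disappeared in 9 of 21 alternatives. The calls of the chaperones and cochaperones Stip1, Hsp90aa1 and Fkbp4 held in 16, 14 and 12 of 21. Without the pancreas-marked HFD FST288 replicates 2 and 3, without replicate 2 alone, or with the pancreatic markers as a covariate, the count of 7 became 2, and without HFD FST288 replicate 3 or LTKO FST288 replicate 2 it became 4. For Hsd11b1 the value was -0.23 without LTKO FST288 replicate 1 and -0.83 without replicate 2, the array high in macrophage markers.

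A list of 34 other genes known to respond to glucocorticoids was chosen with earlier results of these data known, so its counts are a description. With FST288 in HFD livers 4 were called higher and 0 lower, where 0.577% of all genes were called higher and 0.419% lower. In LTKO livers 0 were called (limma, 12 at an unadjusted p under 0.05), where 0.167% of all genes were. The 4 were Il1r1, an interleukin 1 receptor (0.95 ± 0.12, limma, adjusted p = 0.0025), Lpin1, a phosphatidate phosphatase of fasting (0.86 ± 0.15, adjusted p = 0.0118), Angptl4, an inhibitor of lipoprotein lipase (0.51 ± 0.09, adjusted p = 0.0184), and Cdkn1a, a cell cycle inhibitor (1.27 ± 0.26, adjusted p = 0.0310). Leaving out 1 array kept the Il1r1 call in 10 of 10 fits, Lpin1 in 8, and Angptl4 and Cdkn1a in 5 each. With the pancreatic markers as a covariate, the Il1r1, Angptl4 and Cdkn1a calls were lost and the Lpin1 call held. Without both pancreas-marked arrays, HFD FST288 replicates 2 and 3, only 1 HFD FST288 array was left, too few to read a call. The changes were then 0.96 for Il1r1, 1.14 for Lpin1, 0.54 for Angptl4 and 1.28 for Cdkn1a. The count of 4 ran from 1 to 6 when 1 array was left out, and that of 0 in LTKO livers from 0 to 3. The median change of the 34 genes over all arrays was 0.07. The classical liver targets Tat, Per1 and Cebpb were singled out after their values were seen. With FST288 in HFD livers they gave -0.13, -0.09 and 0.08 (limma, adjusted p = 0.591, 0.878 and 0.820). In LTKO livers the group means with GFP and FST288 were 11.59 and 11.76 for Tat, 4.31 and 5.29 for Per1, and 6.68 and 6.87 for Cebpb. The Per1 change there was not called with all arrays. It ran from 0.70 to 1.26 when 1 array was left out, and was called in 1 of these 10 fits, without LTKO FST288 replicate 2.

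Between backgrounds with GFP, 4 of the 34 genes were higher and 15 lower in LTKO livers (6 and 9 without LTKO GFP replicate 1). Pdk4, a kinase that blocks pyruvate oxidation, rose by 3.67 ± 0.16 (limma, adjusted p = 6.48e-09) and Gadd45b, a stress gene, by 2.71 ± 0.19 (adjusted p = 7.93e-07). Lpin1 fell by 4.33 ± 0.16 (-4.33, adjusted p = 2.21e-09) and Per1 by 2.09 ± 0.17 (-2.09, adjusted p = 2.78e-06). Tat, the tyrosine aminotransferase long used as a glucocorticoid marker in liver, fell by 0.72 ± 0.09 (-0.72, adjusted p = 0.000138). Like the 9 genes, the list moved in both directions. With FST288 in both backgrounds 5 were higher and 10 lower. The shares of all genes called were 6.69% higher and 6.4% lower with GFP, and 5.05% and 5.29% with FST288.

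Per1 is both a glucocorticoid target and a clock gene, and the clock genes differed strongly between backgrounds. Of 15 measured clock and clock output genes, 5 were called higher and 9 lower in LTKO GFP against HFD GFP livers, and 5 and 8 with FST288 in both. Arntl, the activator BMAL1, was 9.70-fold higher with GFP (limma, adjusted p = 4.70e-08) and Dbp, an output that peaks in the opposite phase, 8.45-fold lower (adjusted p = 4.87e-07). Of all genes, 6.69% were called higher and 6.4% lower between backgrounds with GFP, and 5.05% and 5.29% with FST288 in both. With FST288 against GFP, 0 of the 15 were called in either background (limma; 2 in each at an unadjusted p under 0.05). Of 15 genes of interleukin 6 and the acute phase, another input on some of these targets, 1 was called higher with FST288 in HFD livers, Steap4, a metalloreductase (0.67 ± 0.13, adjusted p = 0.0262), and 0 in LTKO livers (limma; 6 at an unadjusted p under 0.05); between backgrounds 1 was higher and 2 were lower with GFP, and 5 and 2 with FST288 (1 and 3 without LTKO FST288 replicate 2). The Steap4 call held in 11 of 21 alternatives, and 0.577% of all genes were called higher in its comparison. The hour of collection is not given in the labels, and the part of the clock in the LTKO against HFD differences of the 9 genes was not tested.

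**Figure D4:**
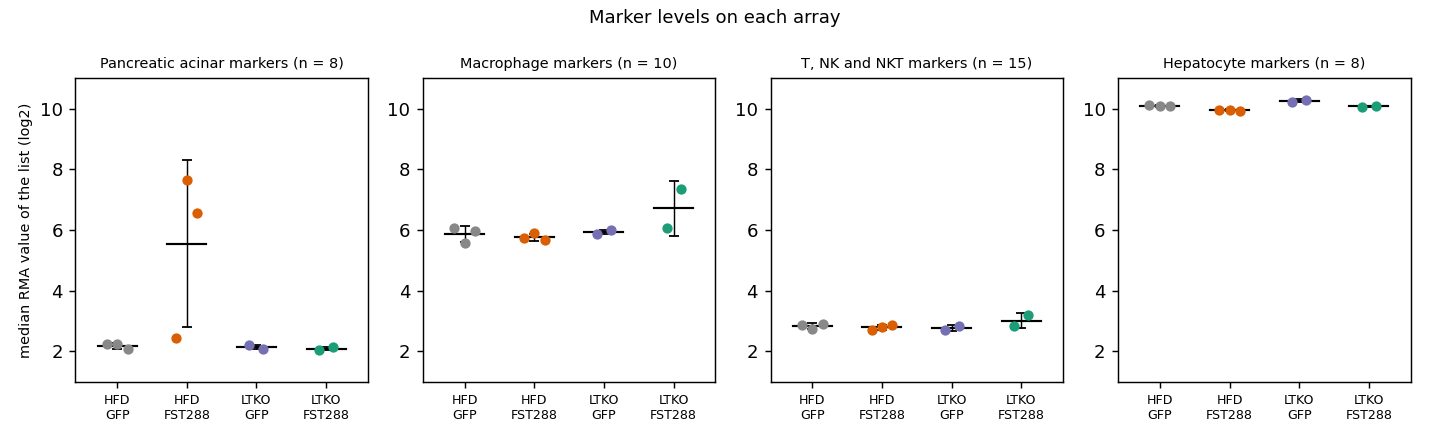
Median RMA level (log2) of 4 lists of cell type markers on each array; points are arrays, horizontal lines are group means, error bars are SD and n in each title is the number of genes. The pancreatic list stands at 7.65 and 6.58 on 2 HFD FST288 arrays, the macrophage list at 7.36 on 1 LTKO FST288 array, and the T, NK and NKT list stays between 2.70 and 3.20.

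Outside Zbtb16, profile likeness was read for the 4 genes whose group means spanned at least 1 log2 unit. The gene closest to Errfi1 was G6pc, the glucose-6-phosphatase of gluconeogenesis, at 0.169 log2 units, and Dusp1 was also among the 5 closest, at 0.198. LTKO GFP replicate 1 was the lowest array for each of these genes. Its levels against replicate 2 were 9.18 and 10.13 for Errfi1, 9.26 and 9.85 for G6pc, and 6.22 and 6.97 for Dusp1. How far the likeness rests on that 1 array was not tested. Mt1 was closest to Snord70 at 0.164 and Mt2 to Gdpd1 at 0.243, and neither metallothionein was among the 5 closest to the other. Tsc22d3 was closest to Ak4, an adenylate kinase, at 0.104. Spans of the group means were 2.46 for Mt2, 1.75 for Zbtb16, 1.27 for Mt1, 1.08 for Tsc22d3 and 1.03 for Errfi1, and 0.91 or less for Dusp1, Sgk1, Fkbp5 and Klf9.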

How the data were processed

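Total RNA from liver was labelled and hybridised to 10 Affymetrix whole-transcript arrays. Per the submitters' processing notes, the authors ran RMA in Affymetrix Expression Console (no version stated), and the deposited values are taken as log2 from that method and from their range of 0.64 to 13.21. An array gives no counts, so the number of arrays limits the precision. RMA shrinks differences of dim genes.

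Of 41345 transcript clusters, 23521 have 1 symbol in the supplied gene table, and for genes with several clusters the brightest over all 10 arrays was used, which left 22180 genes. limma 3.58.1 (R 4.3.3) fitted 1 mean per group to all 10 arrays, with 6 residual and 7.155 prior degrees of freedom and eBayes with an intensity trend. The 5 contrasts were FST288 against GFP in each background, their difference, and LTKO against HFD with GFP and with FST288; the last 3 share arrays with the first 2. Tests were two-sided, p was adjusted by Benjamini-Hochberg over all 22180 genes, with 0.05 as the threshold for a call. Group errors are SD and errors of changes are SE. The fit was tested on simulated data.

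The 9 genes, the lists of pathway genes and those of cell type markers were chosen with earlier results of these data known. The named genes were the 9, Nr3c1, Hsd11b1, Fst, Irs1, Irs2 and Foxo1, up to 5 called genes of largest change per list, family and contrast, and the 5 closest profiles; Tat, Per1, Cebpb, Nr4a1 and Fosl2 were added after their values were seen where they fall outside it. Alternatives changed the moderation, weights, normalization, filter, clusters, arrays and threshold, added the replicate number as a block, and dealt with the pancreatic signal.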

Additional observations from a re-analysis of the deposited data

Results flagged for a closer look

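The FST288 effect on Il1r1, a receptor of interleukin 1 and a known glucocorticoid target, differed between backgrounds by -1.12 ± 0.20 on the log2 scale (LTKO minus HFD, limma interaction, adjusted p = 0.0441). It went from 7.17 ± 0.30 to 8.12 ± 0.01 in HFD livers (SD, n = 3 and 3) and from 5.97 ± 0.07 to 5.81 ± 0.09 in LTKO livers (n = 2 and 2). The direction held in all 20 alternatives, with values from -1.25 to -0.96. The call held in 8 of the 20 and in 2 of the 10 fits among them that leave out 1 array. It was lost with the pancreatic markers as a covariate.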

How the results depend on the processing

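The counts of the 9 genes called depended on the settings to a different degree in each comparison. In HFD livers the 1 gene counted was Zbtb16, which that contrast chose, so nothing is read from that count under any setting. In LTKO livers the count was 0 and ran from 0 to 1 when 1 array was left out. For the difference of the FST288 effects it was also 0 and ran from 0 to 1. At an adjusted p under 0.1 the count for the difference was 1. That gene was Zbtb16, which shares the HFD arrays with its choice and carries no test there. Errfi1, without LTKO GFP replicate 2, was the 1 gene in both ranges. The count for LTKO GFP against HFD GFP was 5 and ran from 3 to 6 when 1 array was left out. In that comparison the Dusp1 call held in 11 of 21 alternatives, and Klf9, not called in the main fit, was called in 2. With FST288 in both backgrounds the Sgk1 call held in 19 of 21, while Fkbp5 and Errfi1, not called in the main fit, were called in 2 and 3. Of 936 values of the 9 genes under alternatives, 900 kept their direction and their side of the threshold, 14 lost a call, 9 gained one and 13 turned sign, all of the last in changes that were not called. Those were Mt1 in HFD livers (-0.05 with the pancreatic markers as a covariate, -0.03 without the arrays high in them, -0.04 to 0.18 leaving out 1 array), Klf9 in the difference (-0.04, -0.02 and -0.15 to 0.31) and, leaving out 1 array, Klf9 (-0.07 to 0.39), Zbtb16 (-0.07 to 0.36) and Mt1 (-0.07 to 0.59) in LTKO livers, and Mt2 (-0.15 to 0.51) and Mt1 (-0.11 to 0.54) in the difference. The causes were not tested. Over all genes, the calls with FST288 in HFD livers numbered 221, but 101 without the intensity trend, 80 over all clusters, 411 in a fit of these groups alone, 32 with the pancreatic covariate, 6 without the arrays high in it and 80 to 307 leaving out 1 array. In LTKO livers they numbered 37, and 0 in a fit of these groups alone and 21 to 237 leaving out 1 array. The difference of the FST288 effects had 48 calls over all genes, but 3 without the intensity trend, 6 over all clusters and 1 with the pancreatic covariate. Same-numbered replicates did not deviate together, with correlations of -0.10 to 0.05 over 13 pairs. With the replicate number as a block, LTKO GFP against HFD GFP gave 4 of the 9 genes, since Dusp1 lost its call (-0.69, adjusted p = 0.0504), and the other counts of the 9 genes stayed at 1, 0, 0 and 5.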
